A study of Homo sapiens with 4 samples.

Results

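The respiratory chain of the inner mitochondrial membrane is built from subunits encoded in the nucleus and, for complexes I, III and IV, from a few encoded in mitochondrial DNA. The nuclear-encoded subunits were selected by symbol: names made of NDUF, one of the letters A, B, C, S or V and a number, the SDH genes SDHA to SDHD, names beginning with UQCR or CYC1, and the COX4 to COX8 subunit genes. The symbols matched 118 genes, of which 50 were pseudogenes and were left out, so that 68 of the 60623 genes in the deposited table were described. By symbol, 37 belong to complex I, 4 to complex II, 10 to complex III and 17 to complex IV. NDUFA4 is counted with complex I because of its symbol, although its product is a subunit of complex IV.

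RNA from T24, a human bladder cancer cell line, was sequenced in 4 libraries. In 2 libraries the cells had received a scramble control, and in 2 they overexpressed miR-146a-5p, which the study's description gives as a transfected mimic of this microRNA. No other treatment or genotype separates the groups. Whether replicate libraries trace back to independent cultures is not labelled, and any p-value below reflects the variation among the 4 libraries, which could be purely technical.

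Complex I oxidises NADH and passes the electrons to ubiquinone, and complex II does the same with electrons from succinate. Complex III moves them from ubiquinol to cytochrome c, and complex IV hands them to oxygen. Complexes I, III and IV pump protons as they work, and ATP synthase uses the gradient. Each complex contains a catalytic core and, except for complex II, many accessory subunits that hold the structure together.

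A microRNA pairs with messages through its seed, bases 2 to 8, and the mature sequence is shown to make the pairing visible. In the lines below, capitals mark the seed of the microRNA (RefSeq, GRCh38.p14) and, in each target, the matching bases.
hsa-miR-146a-5p, mature: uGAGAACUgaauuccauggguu
NDUFV3 site, chr21:42911810-42911817, plus strand: catttaatAGTTCTCAagctggga
NDUFA5 site, chr7:123539516-123539522, minus strand: cctatttcAGTTCTCccatgggt
NDUFA10 site, chr2:239957721-239957727, minus strand: gtggtgctGTTCTCAgagccata

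The sites lie in the annotated 3′ UTRs of the longest coding transcripts (GENCODE release 29, GRCh38), and their coordinates give the matching bases. They are shown as examples of each kind of match, the full match of seed and flanking A in NDUFV3 and shorter matches in NDUFA5 and NDUFA10, and are not all matches found. Of the 68 members, 6 (8.82%) held at least 1 match, NDUFA9 and COX6B2 among them, and of the 61 tested members 5 (8.20%) did. Among all tested genes with an annotated 3′ UTR, 2594 of 12345 (21.0%) held one. The members' 3′ UTRs are short, with a median of 451 bases over the 61 tested members against 1327 bases over the tested genes. A match is a description of the sequence and not a measured site.

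Many nuclear respiratory chain promoters are known for motifs of NRF1 and of the ETS factor GABPA. Motif matches were counted on both strands in the 250 bases before the start sites that RefSeq (GRCh38.p14) gives, which were found for 55 of the 68 members. The NRF1 motif, whose letters stand in capitals below with 1 base left free, was in 11 of 55 members (20%) against 6.20% of 27305 genes, and the ETS motif CCGGAAGT in 8 (14.5%) against 4.13%. The 27305 genes include genes not tested here, and the shares were not matched for base composition. The YY1 motif was not found in any of the 55 windows. Since only 0.304% of genes held it there, its absence from 55 windows says little about the members. The following windows show the promoters that the later values refer to, read 5′ to 3′ on the gene's strand with the motif in capitals (its reverse complement in UQCRFS1 and UQCRC1), and the SDHA window is 1 of 4 matches in that promoter.
SDHA promoter, chr5:218129-218188, plus strand: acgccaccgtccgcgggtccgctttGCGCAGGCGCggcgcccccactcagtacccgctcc
UQCRFS1 promoter, chr19:29213152-29213207, minus strand: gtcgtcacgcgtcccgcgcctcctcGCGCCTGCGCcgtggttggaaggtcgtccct
UQCRC1 promoter, chr3:48609659-48609718, minus strand: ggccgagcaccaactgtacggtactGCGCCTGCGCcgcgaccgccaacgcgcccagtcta
COX5B promoter, chr2:97646000-97646057, plus strand: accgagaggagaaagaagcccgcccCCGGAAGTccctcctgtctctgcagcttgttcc

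Library totals of deposited estimated counts ran from 20290055 to 22774090, and 14810 genes passed the filter on low counts. Epithelial keratins were abundant in all libraries, with KRT8 at 1172 and 1539.7 CPM (counts scaled to the library total) in the scramble and 1258 and 1152 CPM in the miR-146a-5p libraries, while CDH1, the epithelial cadherin, had 0 to 2 counts. Of the 13 urothelial markers, only 6 passed the filter on low counts, and UPK3A and KRT5 were at 0 throughout. The 13 summed to 3792 and 5646 CPM in the scramble and to 4035 and 3706 CPM in the miR-146a-5p libraries. Scramble 2 was the highest, as for the members below, and the part of this in the results was not tested. Fibroblast, leukocyte and endothelial marker lists summed to at most 5.27, 16.9 and 0.591 CPM, the leukocyte sum being mostly CD68. IRAK1, an established target of miR-146a-5p, was at 498 and 716 CPM in the scramble and 108 and 109 CPM in the miR-146a-5p libraries. The scramble libraries differed far more from each other than the miR-146a-5p libraries did: edgeR's common coefficient of biological variation was 0.494 in the scramble pair and 0.061 in the miR-146a-5p pair. Levels are therefore also given against each scramble library apart.

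Summed over the 68 members, the nuclear-encoded chain stood at 5039.8 CPM in scramble 1, 6513 CPM in scramble 2, 5538 CPM in miR-146a-5p 1 and 5249.8 CPM in miR-146a-5p 2. Both miR-146a-5p libraries lay between the scramble libraries. Their mean was 7.02% above scramble 1 and 17.2% below scramble 2, while scramble 2 itself was 29.2% above scramble 1. No test is given for these sums, since 2 libraries against 2 cannot reach an exact permutation p below 0.333. In bulk RNA, fewer cells carrying a transcript and less of it per cell cannot be told apart.

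In CPM the same order held within the larger complexes. Complex I summed to 2307 and 3057 CPM in the scramble libraries and to 2580.3 and 2466 CPM with miR-146a-5p, and complex IV to 1231 and 1631 CPM against 1379 and 1275 CPM. Complex III summed to 1102 and 1365 CPM in the scramble and 1172 and 1109 CPM in the miR-146a-5p libraries. In these 3 complexes the microRNA libraries lay between the scramble libraries in CPM. Complex II was the flattest, with 401 and 460.4 CPM in the scramble and 406 and 400.1 CPM in the miR-146a-5p libraries, one of which lay just below scramble 1. Scramble 2 exceeded scramble 1 by 32.5% in complex I, 14.8% in complex II, 23.9% in complex III and 32.6% in complex IV in CPM. In the authors' TPM, which allow for transcript length, the sums of complex II were 437 and 423 in the scramble and 423 and 411 in the miR-146a-5p libraries and those of complex III 2042 and 2079 in the scramble and 2114 and 1999 in the miR-146a-5p libraries. Scramble 2 was then below scramble 1 in complex II and little above it in complex III, where 1 microRNA library lay above and 1 below both scramble libraries. Complexes I and IV kept their order in TPM, at 6302 and 7294 in the scramble and 6771 and 6536 in the miR-146a-5p libraries for complex I and 4027 and 4549 in the scramble and 4371 and 4051 in the miR-146a-5p libraries for complex IV.

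**Figure D1:**
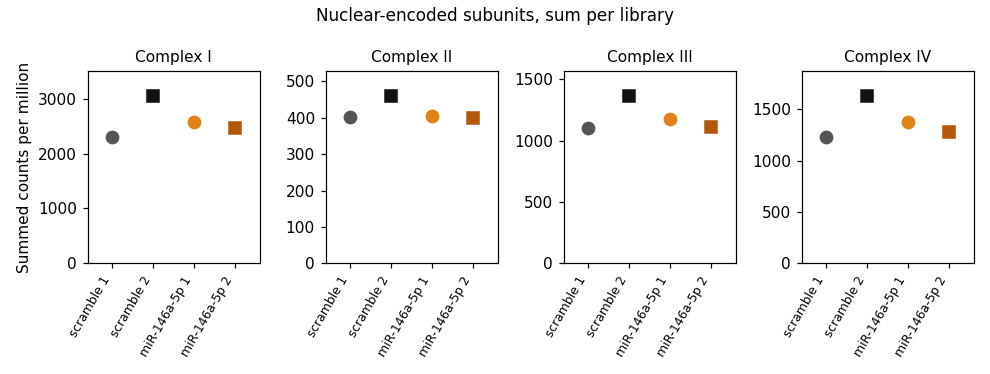
Summed CPM of the nuclear-encoded subunits (vertical axes, each from 0) in each of the 4 libraries, by complex. Each point is 1 library, and in every complex scramble 2 is the highest; for complex I it is at 3057 CPM.

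No member passed an adjusted p of 0.05. The edgeR quasi-likelihood test called 0 of the 61 tested members, and 0 of all 14810 tested genes (0%). At an unadjusted p under 0.05 it counted 0 members, against 549 genes (3.71%). DESeq2 called 0 members as well, with 52 genes (0.324%) called in all, and the authors' deposited table likewise lists 0 members among its 52 called genes. The lowest adjusted p of a member was 0.970 with edgeR. With all 4 libraries edgeR did not call IRAK1 either, at a log2 fold change of -2.48 (adjusted p = 0.728), whereas DESeq2 did, with an adjusted p of 5.03e-09. A missing call does not show that a member was unchanged.

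The members' edgeR log2 fold changes of miR-146a-5p over scramble ran from -0.69 for NDUFA3 to 0.75 for NDUFA5. Their median was -0.11, beside -0.00 over all tested genes, and 48 of 61 were negative (78.7%) where 50.1% of all genes were. With offsets for GC content and length, 52 were negative and 9 positive. Their median was then -0.12, beside -0.02 over all tested genes. The direction of the majority depended on which scramble library was the reference. Against scramble 1 alone, 49 of 61 members were higher in the mean of the miR-146a-5p libraries, with a median log2 ratio of 0.12. The other 12 members were lower, while 49.5% of all genes were lower. Against scramble 2 alone, 54 of 61 were lower, with a median of -0.31, while 50.5% of all genes were lower. In CPM, scramble 2 was above scramble 1 in 56 of 61 members (91.8%) and in 55.4% of all tested genes.

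**Figure D2:**
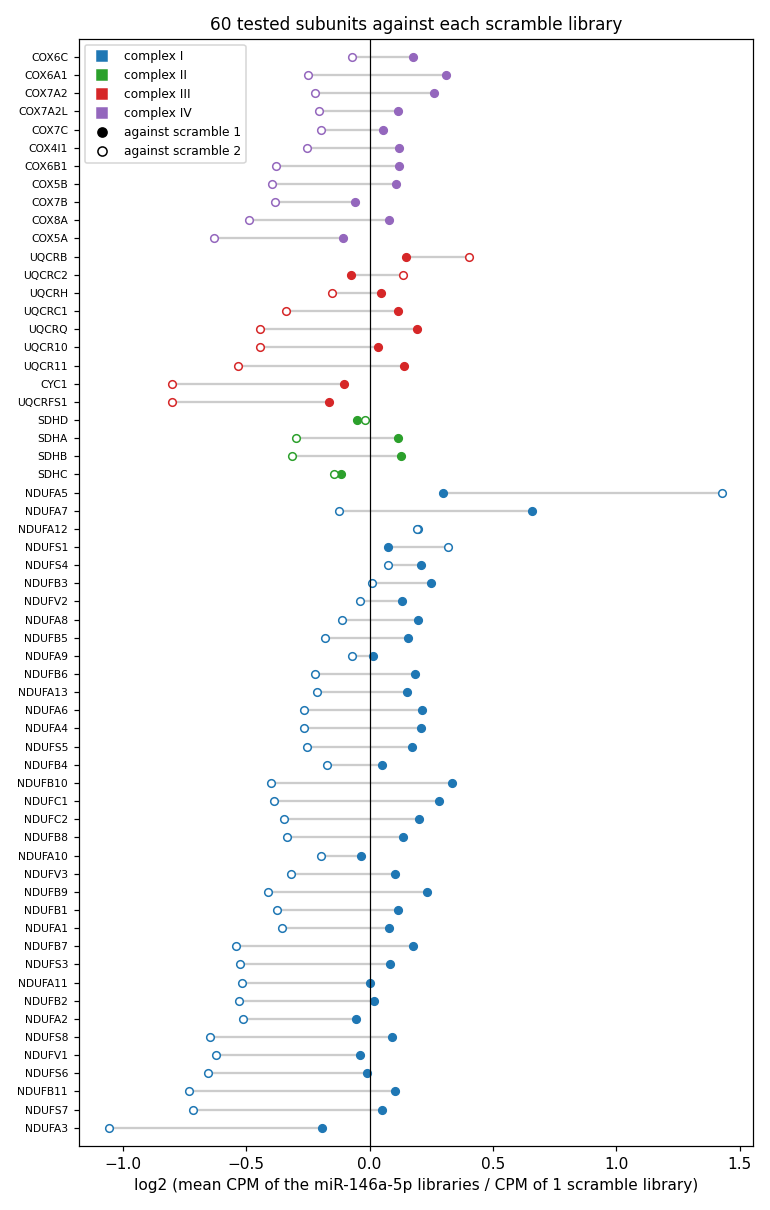
Log2 ratio of the mean CPM of the miR-146a-5p libraries to scramble 1 (filled) and to scramble 2 (open) for 60 of the 61 tested members, coloured by complex. Filled points lie mostly right of 0 and open points mostly left of it. Of the open points, 7 lie right of 0, and that of NDUFA5 is the furthest right.

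In 36 of 61 members (59.0%) both miR-146a-5p libraries lay between the scramble libraries, as they did in 39.0% of all genes. In 7 members both lay below both scramble libraries: NDUFA3, NDUFA10, SDHC, CYC1, UQCRFS1, COX5A and COX7B. That is 11.5% of the members, where 18.0% of all genes were so placed. In 5 members (8.20%) both lay above both scramble libraries, namely NDUFA5, NDUFA12, NDUFS1, NDUFS4 and UQCRB, and again 18.0% of all genes did. These counts rest on the unit: in the authors' TPM they were 11 below and 10 above, and after offsets for GC content and length 11 and 2.

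Complex I is the largest of the complexes, and all 37 of its members were tested. NDUFV1 binds the flavin that accepts electrons from NADH. It was at 114 and 171 CPM in the scramble libraries and 118 and 105 CPM in the miR-146a-5p libraries, a log2 fold change of -0.36 (SE 0.27). The groups overlapped, because miR-146a-5p 1 lay just above scramble 1 and only scramble 2 was high. NDUFS1, the large iron-sulfur subunit of the NADH-oxidising arm, went the other way: 145 and 123 CPM in the scramble and 154 and 151 CPM in the miR-146a-5p libraries, which lay above both, at 0.19 (SE 0.18). With offsets for GC content and length the log2 fold change of NDUFS1 was -0.02.

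Among the accessory subunits of complex I, NDUFA3 and NDUFA5 lay at the ends of the range. NDUFA3 was at 10.5 and 19.0 CPM in the scramble and 9.70 and 8.60 CPM in the miR-146a-5p libraries, a log2 fold change of -0.69 (SE 0.37). Its miR-146a-5p libraries lay below both scramble libraries, close to scramble 1 and further from scramble 2, with log2 ratios of -0.19 and -1.05. NDUFA5 was at 53.3 and 24.3 CPM in the scramble and 60.6 and 70.4 CPM in the miR-146a-5p libraries, a log2 fold change of 0.75 (SE 0.43). Here scramble 2 was the low library, and the log2 ratio was 0.30 to scramble 1 and 1.43 to scramble 2. The log2 fold change of NDUFA5 turned to -0.22 with offsets for GC content and length. The 7-base seed match shown above stands in the 3′ UTR of NDUFA5, whose values were the higher ones with the microRNA.

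NDUFA4, counted here by its symbol, was at 60.9 and 84.7 CPM in the scramble and 68.2 and 72.7 CPM in the miR-146a-5p libraries, at a log2 fold change of -0.05 (SE 0.24). Its groups overlapped. NDUFA12, NDUFS4 and NDUFA10, an accessory subunit with a seed match, did not overlap between groups, at log2 fold changes of 0.19, 0.14 and -0.12. With the offsets these were 0.009, -0.26 and -0.09, so that NDUFS4 changed sign. NDUFA10 was at 109.8 and 123 CPM in the scramble and 107 and 107 CPM in the miR-146a-5p libraries. By symbol series, 11 of 11 NDUFB and 2 of 2 NDUFC members were above scramble 1, and 10 of 11 and 2 of 2 below scramble 2, in the mean of the microRNA libraries. Across the complex, 28 members had a negative and 9 a positive edgeR log2 fold change.

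Complex II oxidises succinate with 4 nuclear subunits and no mitochondrially encoded one. SDHA, the flavoprotein, was at 117 and 155 CPM in the scramble and 129.5 and 123 CPM in the miR-146a-5p libraries. The iron-sulfur subunit SDHB was at 58.1 and 78.9 CPM and 64.1 and 62.9 CPM in the same order. For both, the microRNA libraries lay between the scramble libraries, with log2 fold changes of -0.11 (SE 0.22) and -0.11 (SE 0.24). SDHA has pseudogenes that resemble it closely, and no source used here says how the authors' counting divided such reads, which leaves its value uncertain.

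Within complex II, the membrane anchors SDHC and SDHD differed least between the scramble libraries in CPM. SDHC was at 119 and 121 CPM in the scramble and 113 and 107 CPM in the miR-146a-5p libraries, which lay below both, at a log2 fold change of -0.13 (SE 0.17). The difference was smaller than its standard error. In the authors' TPM the groups of SDHC overlapped, at 154 and 140.3 in the scramble and 147 and 133 in the miR-146a-5p libraries. SDHD was at 107 and 105 CPM and 100.03 and 107 CPM, with overlapping groups and a log2 fold change of -0.04 (SE 0.17). In the authors' TPM the scramble libraries stood further apart for SDHD, at 132 and 108. Its miR-146a-5p libraries lay between them, at 116 and 126 TPM.

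Complex III carries electrons through the Rieske protein UQCRFS1 and cytochrome c1, encoded by CYC1, with UQCRC1 and UQCRC2 as its large core subunits. UQCRFS1 was at 69.1 and 107 CPM in the scramble and 60.6 and 62.7 CPM in the miR-146a-5p libraries, a log2 fold change of -0.52 (SE 0.28). CYC1 was at 155 and 252 CPM in the scramble and 149 and 139.7 CPM in the miR-146a-5p libraries, at -0.49 (SE 0.29). Both electron carriers lay below both scramble libraries, only a little below scramble 1 (-0.17 and -0.10 on the log2 scale) and further below scramble 2 (-0.80 for each). Neither passed the edgeR test, with an adjusted p of 0.970 for each.

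UQCRC1 was at 199.97 and 273 CPM in the scramble and 225 and 207 CPM in the miR-146a-5p libraries, a log2 fold change of -0.13 (SE 0.22) that became 0.03 with GC and length offsets. The microRNA libraries were between the scramble libraries. UQCRC2 was at 99.2 and 85.8 CPM and 96.8 and 91.6 CPM, and scramble 2 was its lowest library. UQCRB, a small accessory subunit, was the member of complex III that lay above both scramble libraries, with 242 and 202 CPM in the scramble and 269 and 266 CPM in the miR-146a-5p libraries, at 0.27 (SE 0.17). With GC and length offsets its log2 fold change was -0.50, so its direction was not stable. UQCRH, the hinge protein, was at 176 and 202 CPM and 189 and 174 CPM, and its near copy UQCRHL had at most 3.02 estimated counts in a library and was not tested.

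Complex IV has several nuclear subunits with a ubiquitous and a tissue-restricted isoform, and T24 cells held reads for the ubiquitous ones. COX4I1, COX6A1, COX6B1, COX7A2, COX7B and COX8A were all tested. COX4I2, the muscle isoforms COX6A2 and COX7A1, and the testis isoform COX8C had 0 counts in all 4 libraries, which allows at most 0.132 to 0.148 CPM per library by 3 counts. COX6B2 had 2, 0, 0 and 5 counts and COX7B2 had 2, 0, 0 and 0 counts in scramble 1, scramble 2, miR-146a-5p 1 and miR-146a-5p 2. These 6 isoforms and UQCRHL are the 7 members that did not pass the filter.

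COX5A, a nuclear subunit with no such partner, was at 79.2 and 114 CPM in the scramble and 75.7 and 71.6 CPM in the miR-146a-5p libraries, a log2 fold change of -0.39 (SE 0.25). It lay below both scramble libraries, near scramble 1 (-0.11) and further from scramble 2 (-0.63). COX7B, a small membrane subunit, was at 123 and 154 CPM and 122 and 114 CPM, also below both, at -0.23 (SE 0.20). COX8A, another small membrane subunit, was at 106 and 157 CPM in the scramble and 115 and 109 CPM in the miR-146a-5p libraries, with both microRNA libraries between the scramble libraries.

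COX4I1, the regulatory subunit and the one with the highest TPM of the complex, was at 272 and 354 CPM in the scramble and 315 and 277 CPM in the miR-146a-5p libraries. COX6A1 was at 122 and 180.3 and 159.7 and 144 CPM, and COX6B1 at 55.6 and 78.7 and 64.1 and 56.8 CPM, in the same order of groups. COX7A2 was at 44.8 and 62.4 CPM in the scramble and 54.7 and 52.5 CPM in the miR-146a-5p libraries. For all 4 genes the microRNA libraries lay between the scramble libraries. The edgeR log2 fold changes of COX6A1 and COX7A2 were 0.00 and -0.00 (SE 0.26 and 0.25).

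Per length, in the authors' length-normalised TPM, the members were well above the typical gene, with medians of mean TPM of 134 for complex I, 104 for complex II, 165 for complex III and 332 for complex IV, beside 10.8 over all tested genes. Subunits of one complex were not at one level. In complex I the mean TPM ran from 20.1 for NDUFV3, a small flavoprotein-arm subunit, to 612 for NDUFB8, and in complex III from 31.0 for UQCRFS1 to 779 for UQCRH. Complex IV spanned 67.3 for COX7A2L to 747 for COX4I1. COX7A2L is known as a factor of respiratory supercomplexes. The 4 SDH genes were within 1.98-fold of each other, from 72.4 for SDHA to 143 for SDHC.

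NDUFV3 stood at 18.6 and 23.2 TPM in the scramble and 16.4 and 22.0 TPM in the miR-146a-5p libraries, and NDUFB8 at 572 and 674 and 618 and 585 TPM. The groups overlapped for NDUFB8, and for NDUFV3, which carries a full seed match, 1 microRNA library lay below both scramble libraries and 1 lay between them. UQCRFS1 was at 30.3 and 41.6 TPM in the scramble and 25.4 and 26.6 TPM in the miR-146a-5p libraries, below both. COX7A2L was at 65.2 and 65.0 and 64.7 and 74.3 TPM. In mean TPM, the tested subunits spanned 30.5-fold within complex I, 25.1-fold within complex III and 11.1-fold within complex IV.

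**Figure D3:**
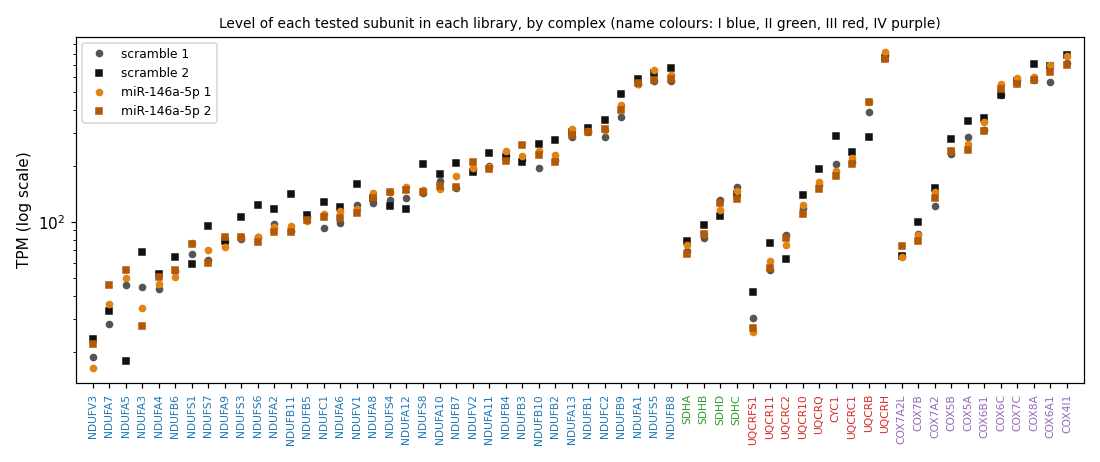
TPM of 60 of the 61 tested members (log axis) in each of the 4 libraries, members ordered by mean TPM within each complex. Levels within complex I span 20.1 to 612 in mean TPM, while the 4 points of a member lie close together; NDUFA5 is low in scramble 2.

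Because the members' CPM in scramble 2 differed from scramble 1 so uniformly, they were set against GC content, the median over a gene's annotated transcripts. The members' median GC was 50.5%, from 34.4% for NDUFA5 to 66.8% for NDUFS7, beside 49.5% over all tested genes. Across the 61 members, Pearson's r of GC with the log2 ratio of scramble 2 to scramble 1 was 0.67, and across 14595 tested genes 0.65. These are descriptions across genes of the same 2 libraries, and genes are not independent replicates. The 5 members that were lower in scramble 2 in CPM were NDUFA5, UQCRB, NDUFS1, UQCRC2 and SDHD. Of these, NDUFA5 and UQCRB have the lowest GC content of the tested members.

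The members can be set beside other genes on each side of their median GC content. Of the 31 members at or below 50.5% GC, 26 were higher in scramble 2 in CPM, with a median log2 ratio of 0.25. Of the 7773 tested genes in the same range, 27.9% were higher in CPM and the median was -0.54. The count of members rests on the unit. NDUFA12, NDUFS4, SDHC, UQCRH and COX7C were among those higher in scramble 2 in CPM but lower in the authors' TPM. The other tested genes were not compared in TPM. Above that border all 30 members were higher in scramble 2, with a median of 0.56, beside 87.5% of 6822 genes and a median of 0.42. The members' transcripts are also shorter, with a median length of 703 bases against 1729, and whether length or GC moved the values was not tested.

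**Figure D4:**
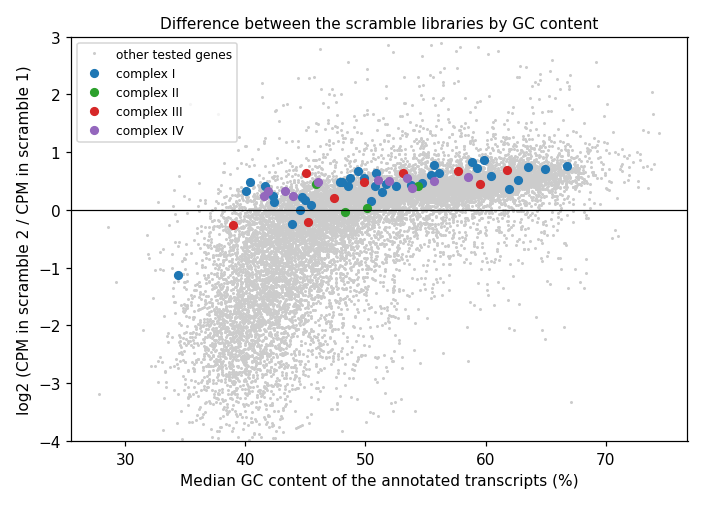
Log2 ratio of CPM in scramble 2 to scramble 1 against GC content, grey for other tested genes and coloured by complex for the 61 members. Members stay mostly above 0 at low GC, where most genes fall below it; NDUFA5 is the point at 34.4% GC, and 64 genes outside the drawn range of -4 to 3 are not shown.

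Leaving out a scramble library changed the calls. Without scramble 1, edgeR called 45 members, 42 lower and 3 higher (NDUFA5, NDUFS1 and UQCRB), where 26.4% of all tested genes were called lower and 28.5% higher. Without scramble 2 it called 7 members, all higher (NDUFA5, NDUFA7, COX6A1 and COX7A2 among them), where 10.1% of genes were called higher and 11.7% lower. In each case the lone scramble library takes its variance from the miR-146a-5p pair, and these counts compare the microRNA libraries with 1 library. NDUFA5 was called higher in both fits. With GC and length offsets the counts were 41 lower and 1 higher without scramble 1 (22.0% and 20.9% of genes), and 1 lower and 20 higher without scramble 2 (12.4% and 13.5%), and NDUFA5 was called lower in the first and higher in the second.

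In CPM, the subunits encoded in mitochondrial DNA mostly lay below both scramble libraries. Of 13 mitochondrially encoded genes, 12 did so in both miR-146a-5p libraries, against 18.0% of all tested genes, the exception being MT-CYB of complex III. These genes are not independent replicates. In the authors' TPM the groups of MT-ND4 and MT-ND4L overlapped as well. MT-ND4 was at 3732 and 3143 TPM in the scramble and 3224 and 3214 TPM in the miR-146a-5p libraries. MT-CO1, the catalytic subunit of complex IV, was at 13353 and 13584 CPM in the scramble and 10823 and 10339.6 CPM in the miR-146a-5p libraries, at a log2 fold change of -0.35 (SE 0.10). The list's median log2 ratio was -0.24 to scramble 1 and -0.44 to scramble 2, where the nuclear members' medians were 0.12 and -0.31. None of the 13 passed the edgeR adjusted p of 0.05, and 5 had an unadjusted p under 0.05.

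For each complex, the summed TPM of the mitochondrially encoded subunits was divided by that of the nuclear members. In complex IV this ratio was 7.71 and 6.53 in the scramble and 5.73 and 5.94 in the miR-146a-5p libraries, below both. In complex I it was 5.05 and 3.95 against 3.83 and 3.99, and the groups overlapped through scramble 2, although in CPM both microRNA libraries were below both (4.06 and 4.26 against 5.29 and 4.55). In complex III, with MT-CYB alone, it was 1.09 and 0.903 against 1.04 and 1.08, and overlapped. Over the 3 complexes the ratio was 5.26 and 4.33 in the scramble and 4.01 and 4.16 in the miR-146a-5p libraries. With 2 libraries a group the smallest exact permutation p is 0.333, so no test is given.

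**Figure D5:**
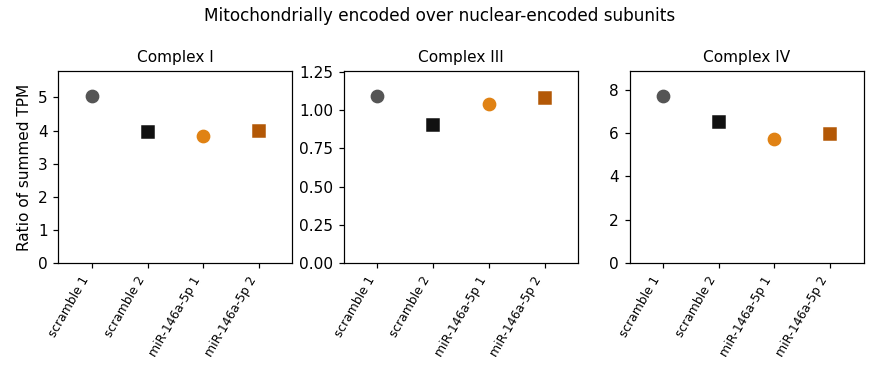
Ratio of the summed TPM of mitochondrially encoded to nuclear-encoded subunits (axes from 0) in each of the 4 libraries, for complexes I, III and IV. Both miR-146a-5p libraries lie below both scramble libraries in complex IV, and the groups overlap in complexes I and III.

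The neighbouring machinery was mixed. Of 18 nuclear ATP synthase genes, 16 were negative in edgeR log2 fold change (median -0.17), and 3 of 18 lay below both scramble libraries, where 18.0% of all tested genes did: ATP5MC1 and ATP5MC2, which encode the c-ring subunit, and the catalytic-head subunit ATP5F1A. ATP5F1A was at 552 and 647 CPM in the scramble and 539.7 and 484 CPM in the miR-146a-5p libraries. For ATP5MC3, of the same symbol series as ATP5MC1 and ATP5MC2, the groups overlapped. It was at 175 and 229 CPM in the scramble and 177 and 161 CPM in the miR-146a-5p libraries. Against scramble 1 alone the list's median log2 ratio was 0.08, and against scramble 2 it was -0.36, the same split as in the chain. No gene of the list passed the edgeR or the DESeq2 test.

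Of 16 complex I assembly factors, 8 were negative and 8 positive in log2 fold change (median -0.02). Only 2 lay below and 2 above both scramble libraries, beside 18.0% of all tested genes on each side. NUBPL, which delivers iron-sulfur clusters to complex I, was at 9.02 and 6.75 CPM in the scramble and 15.2 and 15.6 CPM in the miR-146a-5p libraries, above both, at 0.96 (SE 0.25). ECSIT, an assembly factor that also takes part in Toll-like receptor signalling, was at 22.4 and 25.3 CPM in the scramble and 16.6 and 16.0 CPM in the miR-146a-5p libraries, below both. Of 34 assembly factors of complexes II to IV, 21 were negative, with a median of -0.06, and 7 lay below and 2 above both scramble libraries, beside 18.0% of all tested genes on each side. No factor of either list passed the edgeR or the DESeq2 test.

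The values were also divided by the promoter motifs. The 10 tested members with an NRF1 motif had a median edgeR log2 fold change of -0.12, and the 41 matched and tested members without one had a median of -0.12. With the ETS motif the medians were -0.11 over 8 members and -0.12 over 43. SDHA, UQCRFS1 and UQCRC1, whose windows are printed above, lay at -0.11, -0.52 and -0.13, and COX5B at -0.17. Of the 5 tested members with a seed match, 4 had log2 fold changes of -0.12 for NDUFA10, -0.13 for NDUFV3, -0.03 for NDUFA9 and 0.75 for NDUFA5, and these examples do not describe the 5 as a group.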

How the data were processed

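Per the submitters' processing notes, reads were handled with cutadapt 1.9.1, HISAT2 2.0.1, HTSeq 0.6.1 and DESeq2, with the build hg19; their roles and settings, strand included, are not given in the sources used here. Per gene and library, the authors deposited an estimated count (30 of the 68 members have a fractional value), TPM, and, in their DESeq2 table, a log2 fold change, a linear fold ratio and p-values. The members and gene lists were chosen with earlier results of these data known.

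Estimated counts were rounded and fitted with edgeR 4.0.16 (TMM, filterByExpr at 10 counts and a total of 15, quasi-likelihood test, two-sided) over all 14810 genes that passed, with Benjamini-Hochberg adjustment. DESeq2 1.42.0 was an alternative. CPM are unrounded counts scaled to the library total. GC content and length came from GENCODE release 29, matched by gene identifier. The fit was also run on simulated counts with the same spread in both groups. The spread here was unequal between the groups, so that run cannot show how the fit performs on these libraries. Alternatives covered scaling, filtering, a replicate block, GC and length offsets and leaving out each library. Genes named with values were each complex's 3 smallest edgeR p-values, its highest and lowest TPM, and subunits listed by function. Others, such as NDUFS1, NDUFA10, UQCRC2 and the members whose groups did not overlap, were named after their values were seen. The ratio of mitochondrial to nuclear subunits and the division by GC were also added after the data were seen. Some results, among them those of 1 tested member, are not reported here by name.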

Additional observations from a re-analysis of the deposited data

How the results depend on the processing

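Calls of members stayed at 0 with DESeq2, other scaling, other filters and GC and length offsets. Leaving out each library gave 0 to 45 members, the 45 without scramble 1 and 7 without scramble 2; with GC and length offsets these were 42 and 21, alternatives chosen after seeing the data. Beside the 0 genes called by edgeR, DESeq2 called 52, and leaving out a library gave 8 to 8421. The log2 ratio of summed levels (miR-146a-5p over scramble) ranged, over leaving out each library, from -0.28 to 0.13 in complex I, -0.19 to 0.008 in complex II, -0.26 to 0.05 in complex III, -0.30 to 0.11 in complex IV and -0.27 to 0.10 over all members, the highest each time without scramble 2. With GC and length offsets, an alternative also chosen after seeing the data, this ratio was -0.14 in complex I and -0.09 in complex II. It was -0.23 in complex III, -0.21 in complex IV and -0.17 over all members. Over all members it was -0.10 by CPM and -0.03 by TPM. Members below and above both scramble libraries, 7 and 5 by CPM, were 11 and 10 by TPM and 11 and 2 with offsets.

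Whether the replicate numbers pair the libraries is not labelled. Across genes the within-group differences correlated at -0.15, and a correlation over the same 4 libraries cannot settle it. A replicate block called 0 members and 5 genes, and the crossed pairing, chosen after seeing the data, 0 members and 0 genes.

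Directions turned in 16 of the 23 tested members that were named for their p-value, TPM or function. With offsets COX4I1 was at 0.007, NDUFA5 at -0.22, UQCRB at -0.50 and UQCRC1 at 0.027. Values also moved without a change of sign. NDUFA4 went from -0.049 to -0.77, COX7B from -0.23 to -0.72 and COX7A2L from -0.055 to -0.35. CYC1 became less negative, from -0.49 to -0.28. Outside the 23, NDUFS1, NDUFS4 and UQCRC2, named after their values were seen, turned with offsets to -0.02, -0.26 and -0.11. COX6A1 was at -0.012 with DESeq2 and -0.006 with RLE factors. COX7A2 was at 0.001 with library totals, 0.003 with no filter, 0.002 with a mean of 1 CPM, and 0.019 with the replicate block or the crossed block. Over leaving out each library, log2 fold changes ran for COX4I1 from -0.25 to 0.13, for COX6A1 from -0.25 to 0.32, for COX6B1 from -0.38 to 0.13, for COX7A2 from -0.22 to 0.27, for COX7A2L from -0.20 to 0.13, for COX8A from -0.49 to 0.090, for NDUFA4 from -0.27 to 0.22, for NDUFB8 from -0.33 to 0.15, for NDUFV3 from -0.32 to 0.11, for SDHA from -0.30 to 0.13, for SDHB from -0.31 to 0.14, for SDHD from -0.075 to 0.019, for UQCRC1 from -0.34 to 0.13, for UQCRH from -0.15 to 0.057. The cause was not tested, beyond the fewer libraries each fit holds. Per-library floors of 3 counts, 0.132 to 0.148 CPM, limit what can be said of the isoforms at 0, and cover counting error only.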

Other observations

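Regulators of mitochondrial biogenesis were not uniform. Of 18 tested, 11 were negative and 7 positive in edgeR log2 fold change (median -0.07), and 5 lay below and 1 above both scramble libraries, beside 18.0% of all tested genes on each side. PPARGC1B, a coactivator of respiratory genes, was at 6.39 and 7.46 CPM in the scramble and 2.97 and 3.89 CPM in the miR-146a-5p libraries, a log2 fold change of -1.01 (SE 0.28). The related coactivator PPRC1 was at 153 and 190.4 CPM and 127 and 138 CPM, and the nuclear receptor ESRRA at 27.4 and 45.3 CPM and 24.6 and 24.9 CPM, both below both scramble libraries. PDK1, the kinase that restrains pyruvate dehydrogenase, was above both, at 55.3 and 31.1 CPM in the scramble and 63.9 and 65.1 CPM in the miR-146a-5p libraries. None passed the edgeR or the DESeq2 test at an adjusted p of 0.05, and 1 of the 18 had an unadjusted edgeR p under 0.05, as did 3.71% of all tested genes.

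Among 14 genes of electron carriers, ubiquinone synthesis and subunits outside the symbol rule, 7 were negative and 7 positive, with a median of 0.02. In CPM, 1 of the 14 lay below and 3 above both scramble libraries, beside 18.0% of all tested genes on each side. DHODH, which feeds electrons to ubiquinone from pyrimidine synthesis, was at 12.7 and 15.4 CPM in the scramble and 10.2 and 9.37 CPM in the miR-146a-5p libraries, below both. COQ5, a methyltransferase of ubiquinone synthesis, was at 14.7 and 18.3 CPM and 22.6 and 22.8 CPM, above both. The NDUFA4 paralogs NDUFA4L2 (8, 13, 3 and 4 counts in scramble 1, scramble 2, miR-146a-5p 1 and miR-146a-5p 2) and C15orf48 were too low to test. No gene of these lists passed the edgeR or the DESeq2 test.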
